A study of Homo sapiens with 6 samples.

Results

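The 39 human HOX genes were taken from the deposited count table by symbol, as HOXA, HOXB, HOXC or HOXD followed by a number, with antisense symbols left out. All 39 were in the table, among 23549 gene symbols: 11 in the HOXA cluster on chromosome 7, 10 in HOXB on chromosome 17, 9 in HOXC on chromosome 12 and 9 in HOXD on chromosome 2. The RNA came from primary human dermal fibroblasts of a single line, in 3 groups of 2 libraries. The VP64-MyoD group carried a doxycycline-inducible (Tet-ON) lentivirus for mouse MyoD with the VP64 activation domain fused to its N-terminus, marked with dsRed-Express2. The WT-MyoD group carried the same vector for mouse wild-type MyoD. Both were selected with 1 µg/mL puromycin, given 3 µg/mL doxycycline and harvested at day 10. The third group was untreated fibroblasts, and the labels do not say whether these cells were transduced, selected or given doxycycline. Their harvest day is not given either. In comparisons with untreated cells, MyoD can therefore not be told apart from vector, puromycin, doxycycline or time in culture. The submitters call the samples biological duplicates of 1 line, so the spread between libraries does not include variation between lines.

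HOX genes encode homeodomain transcription factors that give cells their position along the body axis and the limbs. Genes at the start of a cluster, with low paralogue numbers, act towards the head, and those with high numbers act towards the tail and the ends of the limbs. Adult dermal fibroblasts are known to go on expressing a combination of HOX genes that reflects the skin site they came from, a state often called positional memory and held by Polycomb and trithorax chromatin regulators. MyoD, the myogenic basic helix-loop-helix factor that turns fibroblasts into muscle-like cells, binds E-boxes with the letters CANNTG. The question here was which HOX genes these fibroblasts expressed and which of them were kept after conversion with either form of MyoD.

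RefSeq promoter windows, running from 250 bases before to 50 bases after a gene start in GRCh38.p14, were matched for 20 of the 39 symbols, in 26 distinct windows. The counts were made on an older build, so the windows serve for sequence only. The windows shown are those of HOXA11, the HOXA gene with the largest fall in VP64-MyoD, of HOXD1, the HOX gene with the largest fall in WT-MyoD, and the single window listed for both HOXC4 and HOXC5, which fell together in VP64-MyoD. They lie at chr7:27185183-27185482 on the minus strand, chr2:176188418-176188717 on the plus strand and chr12:54016638-54016937 on the plus strand. Capitals mark each CANNTG, which reads as CANNTG on either strand.
HOXA11: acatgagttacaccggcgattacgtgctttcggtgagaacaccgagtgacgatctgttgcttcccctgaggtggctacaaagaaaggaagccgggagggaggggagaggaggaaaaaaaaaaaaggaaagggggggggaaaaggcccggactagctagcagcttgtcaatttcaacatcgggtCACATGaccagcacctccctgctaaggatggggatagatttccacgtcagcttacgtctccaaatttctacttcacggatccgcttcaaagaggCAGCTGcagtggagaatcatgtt
HOXD1: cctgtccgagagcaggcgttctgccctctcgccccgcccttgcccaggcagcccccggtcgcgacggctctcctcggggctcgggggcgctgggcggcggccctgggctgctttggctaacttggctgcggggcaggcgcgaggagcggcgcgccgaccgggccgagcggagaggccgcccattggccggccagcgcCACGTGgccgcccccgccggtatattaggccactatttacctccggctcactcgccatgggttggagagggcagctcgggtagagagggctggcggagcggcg
HOXC4 and HOXC5: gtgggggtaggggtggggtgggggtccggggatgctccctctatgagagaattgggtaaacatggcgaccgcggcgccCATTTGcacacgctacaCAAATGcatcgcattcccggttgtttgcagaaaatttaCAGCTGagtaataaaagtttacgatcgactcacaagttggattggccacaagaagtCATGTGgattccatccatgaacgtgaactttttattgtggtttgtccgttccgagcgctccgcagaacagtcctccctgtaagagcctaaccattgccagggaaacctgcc
HOXA11 has 2 matches, CACATG at 67 bases before the start and CAGCTG at 27 bases after it. HOXD1 has 1, CACGTG, and the shared HOXC4 and HOXC5 window has 4, of which CAGCTG is 1. With each distinct window counted once, CANNTG occurs in 19 of the 26 HOX windows (73.1%), and in 24008 of all 34943 windows (68.7%). CAGCTG, a form of the E-box that MyoD is known to prefer and a subset of the CANNTG matches, occurs in 6 HOX windows (23.1%), and in 6270 of all windows (17.9%). Several of the HOX windows belong to HOXA3, the only HOXB window is that of HOXB1, and HOXC8 and HOXC10 have none. Windows of HOXD10, HOXD11, HOXD12 and HOXD13, which had few or no counts, are also among them. The HOX shares therefore do not stand for the expressed HOX genes. A match of these letters is a description of the window and does not show binding.

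The libraries held between 40997586 and 53804224 counts, all of them even, which was read as 2 per read pair. The mouse Myod1 transgene stood at 116 and 97.2 CPM (counts-per-million, the count scaled to library size) in VP64-MyoD and at 762 and 1021 CPM in WT-MyoD, against 5.13 and 1.05 CPM in untreated cells, and VP64-MyoD lay below WT-MyoD by -3.06 on the log2 scale (SE 0.24, edgeR adjusted p = 3.4e-08). Summed over 10 fibroblast markers the libraries ranged from 29045 to 31440 CPM in VP64-MyoD and from 27307 to 31352 CPM in WT-MyoD, against 41802 to 44129 CPM in untreated cells, and all 10 were present in every group. The sum of 10 skeletal muscle markers was 3735 to 4282 CPM in VP64-MyoD and 739 to 815 CPM in WT-MyoD, against 5.35 to 6.26 CPM in untreated cells. Keratinocyte markers (7 genes) summed to 18.6 to 19 CPM in VP64-MyoD and 8.32 to 9.49 CPM in WT-MyoD, against 6.42 to 7.23 CPM in untreated cells, with KRT1 at 0 in every group. Melanocyte markers (6 genes, TYR at 0 throughout) summed to 6.63 to 7.38 CPM in VP64-MyoD and 14 to 16.1 CPM in WT-MyoD, against 6.91 to 7.06 CPM in untreated cells. Endothelial markers (6 genes) gave 19.8 to 21.4 CPM in VP64-MyoD and 9.05 to 9.49 CPM in WT-MyoD, against 11.4 to 11.7 CPM in untreated cells. Leukocyte markers (6 genes, CD3E at 0 throughout) gave 46.1 to 47.6 CPM in VP64-MyoD and 179 to 183 CPM in WT-MyoD, against 69.3 to 70.9 CPM in untreated cells. In both MyoD groups 5 of the 7 keratinocyte and 5 of the 6 melanocyte markers stayed under 1 CPM. Of the 6 endothelial markers 3 were under 1 CPM in VP64-MyoD and 4 in WT-MyoD, against 5 in untreated cells. The sums of these cell types therefore rest on few genes. Whether the marker sums reflect a change in cell make-up, and its part in the HOX results, was not tested. In bulk RNA, fewer cells expressing a gene and less of its RNA per cell cannot be told apart.

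A HOX gene was called expressed in a group when it reached 1 CPM in both libraries, on the scale of trimmed-mean (TMM) normalised CPM used for all levels here. By this rule 24 HOX genes were expressed in VP64-MyoD and 26 in WT-MyoD, against 27 in untreated cells, and 23 were expressed in all 3 groups. Of the 27 genes expressed in untreated fibroblasts, 23 were kept in VP64-MyoD (85.2%) and 25 in WT-MyoD (92.6%). By the same rule over all symbols, 12086 of 12387 genes expressed in untreated cells were kept in VP64-MyoD (97.6%) and 12159 in WT-MyoD (98.2%). These genes were not matched to the HOX genes for level, so the shares are not directly comparable. The 4 HOX genes that dropped below the line in VP64-MyoD were HOXA3, HOXA5, HOXD1 and HOXD4, and the 2 in WT-MyoD were HOXD1 and HOXD4. HOXA4 was the 1 gene that crossed the line upwards, in both MyoD groups.

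These crossings were made by genes close to the line. HOXD4 missed it in VP64-MyoD with 0.996 CPM in 1 library and 1.04 CPM in the other, whereas HOXD3 cleared it in VP64-MyoD with 1.26 and 1.04 CPM. HOXD1 was inside it in untreated cells with 1.13 and 1.05 CPM, and HOXA4 outside it with 1.05 and 0.732 CPM. None of the genes that crossed stood above 1.92 CPM in an untreated library, and with 0.5 CPM as the line 1 gene was lost in each MyoD group. With 5 CPM as the line, 14 HOX genes were expressed in untreated cells, of which VP64-MyoD lost 1, HOXD9, and WT-MyoD lost 2, HOXB9 and HOXD9. At 1 CPM the 2 genes lost in WT-MyoD were 1 without WT-MyoD replicate 1, and the HOXB and HOXC clusters lost no expressed member in either MyoD group. HOXB had 8 and HOXC 7 members expressed in VP64-MyoD, in WT-MyoD and in untreated cells. HOXA had 6 in VP64-MyoD and 8 in WT-MyoD, against 7 in untreated cells, and 5 in all 3 groups. HOXD had 3 in VP64-MyoD and 3 in WT-MyoD, against 5 in untreated cells.

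The other 11 HOX genes did not reach the line in any group. HOXB1, HOXC12, HOXD11 and HOXD12 had no count in any library, which at 3 read pairs over the 6 libraries allows up to 0.0208 CPM. HOXC13, a hair and nail gene, had 4 counts in all, HOXD10 had 6 and HOXD13, an autopod gene, had 2. Those 7 genes did not pass the filter on low counts and were not tested. HOXA2 lay between 0.0433 and 0.231 CPM over the 6 libraries, HOXA6 between 0.192 and 0.832 CPM, HOXA13 between 0.26 and 0.538 CPM, and HOXB13 between 0.0769 and 0.444 CPM. Counts over the tested HOX genes below therefore cover 32 of the 39: 11 HOXA, 9 HOXB, 7 HOXC and 5 HOXD genes.

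**Figure D1:**
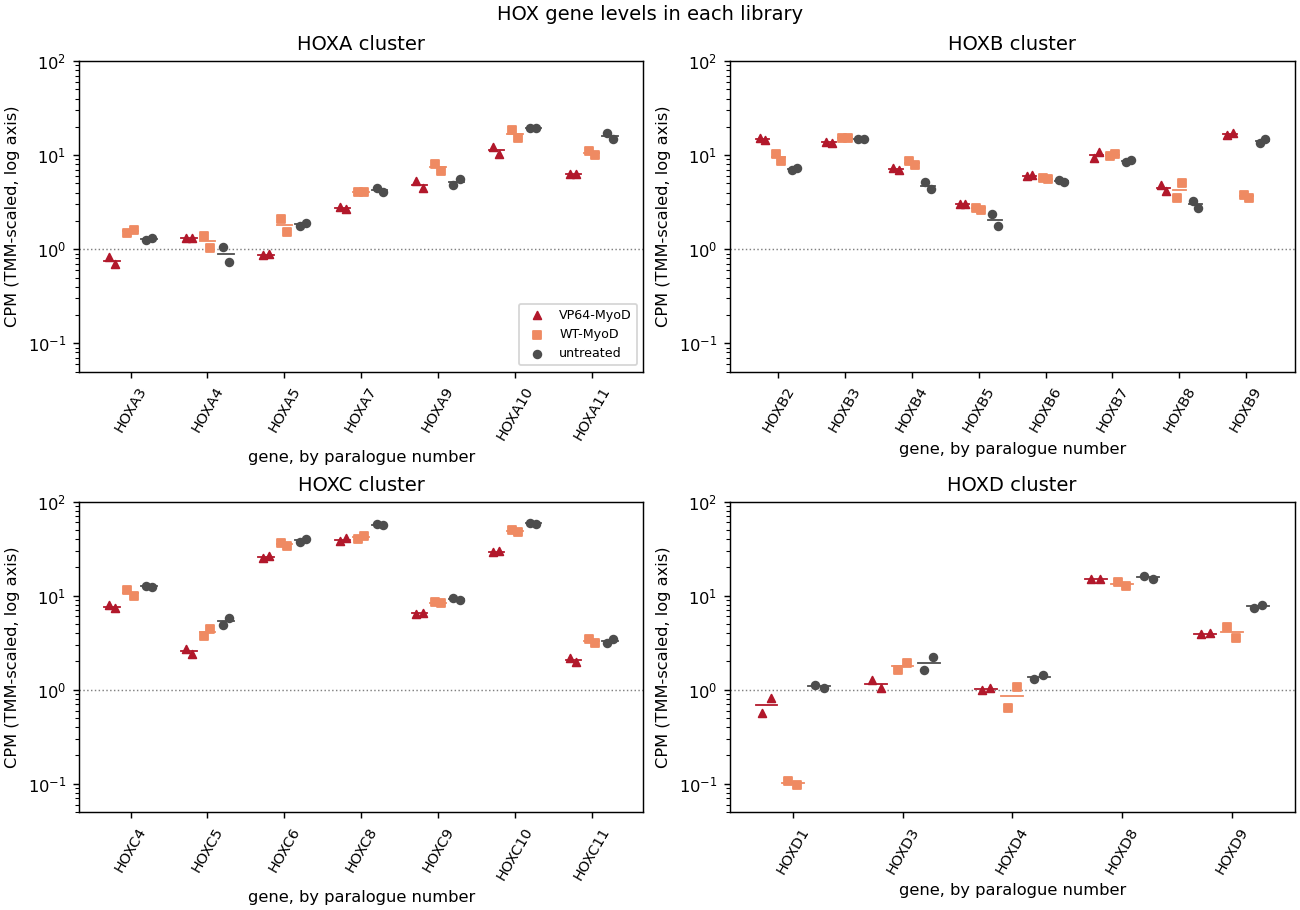
TMM-scaled CPM (log axis) of 27 of the HOX genes expressed in at least 1 group, by cluster and paralogue number, with a point for each library, a bar at the group mean and a dotted line at 1 CPM. For HOXB9 and HOXD1 the WT-MyoD points lie far below both other groups, and for every HOXC gene the VP64-MyoD points lie below the untreated ones.

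Summed over a cluster, HOXC held the most HOX reads in every group. Its 9 genes gave 112 and 115 CPM in VP64-MyoD and 154 and 150 CPM in WT-MyoD, against 184 and 185 CPM in untreated cells. HOXB summed to 76.2 and 76.2 CPM in VP64-MyoD and 59.8 and 59.3 CPM in WT-MyoD, against 60.3 and 60.2 CPM in untreated cells. HOXB was thus the only cluster with a higher sum in VP64-MyoD than in untreated cells, at 126% of the untreated mean. HOXA gave 33.1 and 29.3 CPM in VP64-MyoD and 50.7 and 44.5 CPM in WT-MyoD, against 53.4 and 50.4 CPM in untreated cells. HOXD gave 21.9 and 21.8 CPM in VP64-MyoD and 21.2 and 19.1 CPM in WT-MyoD, against 27.8 and 27.5 CPM in untreated cells. Set against the untreated mean, HOXA stood at 60.2% in VP64-MyoD and 91.8% in WT-MyoD, HOXC at 61.3% in VP64-MyoD and 82.4% in WT-MyoD, and HOXD at 79.1% in VP64-MyoD and 73% in WT-MyoD, while HOXB stood at 98.8% in WT-MyoD. HOXB made up 31.4% of all HOX CPM in VP64-MyoD and 21.3% in WT-MyoD, against 18.6% in untreated cells, and HOXC made up 46.7% in VP64-MyoD and 54.4% in WT-MyoD, against 56.9% in untreated cells. These sums weight long and abundant transcripts most and were not tested.

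**Figure D2:**
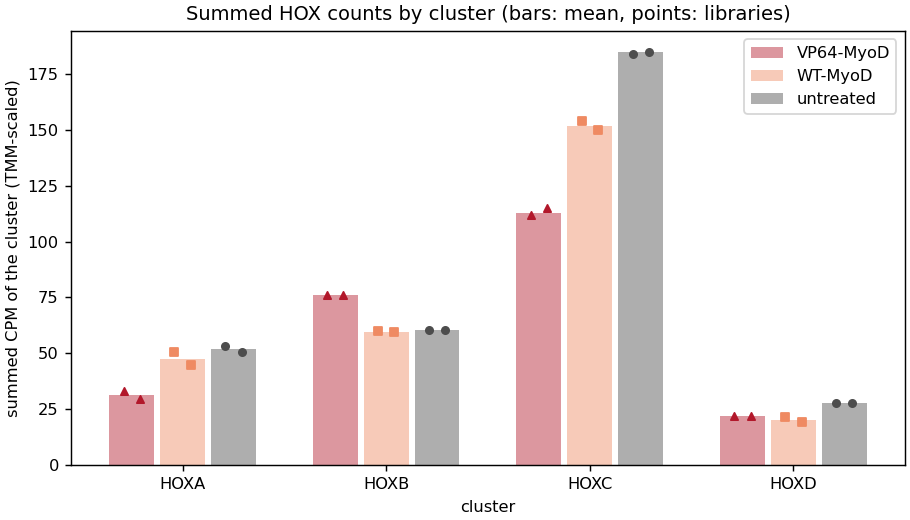
Summed TMM-scaled CPM of each HOX cluster, with bars at the group mean and a point for each of the 2 libraries. HOXC stands at 113 CPM on average in VP64-MyoD and 152 in WT-MyoD, against 185 in untreated cells, while HOXB stands at 76.2 in VP64-MyoD, above the other groups.

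Per kilobase of the longest counted transcript, HOXC8 led in VP64-MyoD at 20.9 ± 0.84 CPM per kb (SD, n = 2), followed by HOXC10 at 15.2 ± 0.4, HOXB2 at 9.51 ± 0.43 and HOXC6 at 8.76 ± 0.25, with no overlap between neighbours in this order. In WT-MyoD the order began with HOXC10 at 25.3 ± 0.93 CPM per kb, HOXC8 at 22.1 ± 1.3 and HOXC6 at 11.9 ± 0.76. The next 5, HOXB7, HOXD8, HOXA10, HOXC4 and HOXB2, overlapped their neighbours between 7.29 and 6.1 CPM per kb. In untreated cells HOXC10 at 30.2 ± 0.26 and HOXC8 at 30.1 ± 0.87 CPM per kb overlapped and led the order, with HOXC6 next at 13.2 ± 0.67. HOXB2 stood twelfth in untreated cells, at 4.59 ± 0.13 CPM per kb, and eighth in WT-MyoD.

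Of the 32 tested HOX genes, 21 were called in VP64-MyoD against untreated cells by the edgeR quasi-likelihood test at an adjusted p under 0.05, 5 higher and 16 lower. Of all 15293 genes tested 63.6% were called in that comparison, 33.3% higher and 30.3% lower. In WT-MyoD against untreated cells 11 HOX genes were called, 4 higher and 7 lower, where 48.5% of all genes were called, 26% higher and 22.5% lower. Between VP64-MyoD and WT-MyoD 16 HOX genes differed, 3 higher and 13 lower, where 57.2% of all genes were called, 28.7% higher and 28.4% lower. The HOX share called was thus 65.6% for VP64-MyoD against untreated cells and 34.4% for WT-MyoD against untreated cells, near or below that of all genes. Lower calls were above the share of all genes in VP64-MyoD, at 16 of 32 HOX genes against untreated cells and 40.6% against WT-MyoD, and were 21.9% in WT-MyoD against untreated cells. The median log2 fold change over the tested HOX genes was -0.53 for VP64-MyoD against untreated, -0.05 for WT-MyoD against untreated and -0.41 for VP64-MyoD against WT-MyoD, beside 0.03, 0.00 and 0.02 over all genes. Both comparisons with untreated cells use the same 2 untreated libraries, and the comparison between the MyoD forms uses the same MyoD libraries again.

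Within clusters the calls in VP64-MyoD against untreated cells were 6 lower of 11 in HOXA, 5 higher and 1 lower of 9 in HOXB, 7 lower of 7 in HOXC and 2 lower of 5 in HOXD. Those in WT-MyoD against untreated cells were 1 higher and 1 lower in HOXA, 3 higher and 1 lower in HOXB, 3 lower in HOXC and 2 lower in HOXD. VP64-MyoD against WT-MyoD gave 7 lower in HOXA, 2 higher in HOXB, 6 lower in HOXC and 1 higher in HOXD. The count for VP64-MyoD against untreated cells was 15 without VP64-MyoD replicate 2, and the count for WT-MyoD against untreated cells was 8 without untreated replicate 1. In VP64-MyoD against untreated cells the 5 higher calls were 2 without VP64-MyoD replicate 1 and 3 without VP64-MyoD replicate 2 or untreated replicate 2, and in WT-MyoD against untreated cells the 4 were 1 without untreated replicate 1 and 2 without WT-MyoD replicate 1.

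**Figure D3:**
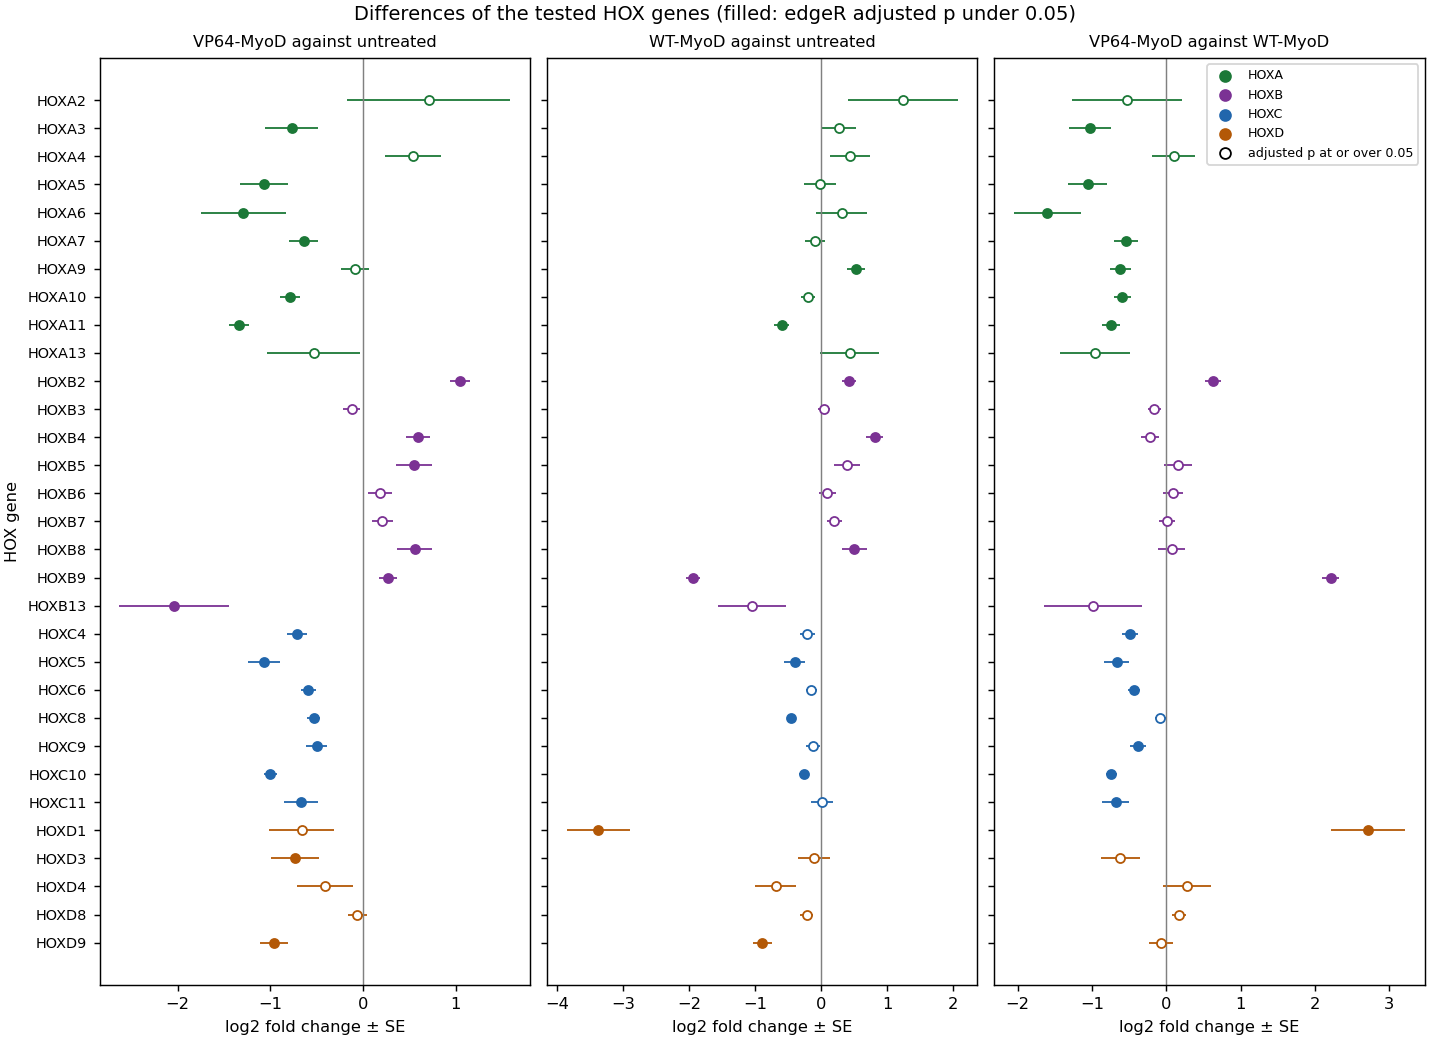
Log2 fold changes with SE of 31 of the tested HOX genes in each comparison, coloured by cluster, with filled points at an edgeR adjusted p under 0.05. All 7 HOXC points lie below 0 and are filled for VP64-MyoD against untreated, and HOXB9 and HOXD1 lie furthest left for WT-MyoD against untreated.

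In the HOXC cluster every tested gene fell in VP64-MyoD relative to untreated cells. HOXC10, known in the mouse for lumbar motor neurons and the hindlimb level, stood at 28.8 and 29.9 CPM in VP64-MyoD and 50.2 and 47.6 CPM in WT-MyoD, against 58.9 and 58.2 CPM in untreated cells. The 3 groups did not overlap, and VP64-MyoD was lowest. HOXC10 fell to 0.501 of its untreated level in VP64-MyoD (log2 SE 0.07, edgeR adjusted p = 3.4e-09) and to 0.836 in WT-MyoD (log2 SE 0.07, edgeR adjusted p = 0.004), and VP64-MyoD lay below WT-MyoD by a log2 of -0.74 (SE 0.07, edgeR adjusted p = 1.9e-07). HOXC8, a thoracic-level gene, stood at 38.3 and 40.5 CPM in VP64-MyoD and 39.9 and 43.5 CPM in WT-MyoD, against 58.1 and 55.8 CPM in untreated cells. Both MyoD groups lay below untreated cells and overlapped each other. HOXC8 fell by 0.53 on the log2 scale in VP64-MyoD and fell by 0.45 in WT-MyoD (SE 0.07 each, edgeR adjusted p = 8.3e-06 and 6.6e-05), and the difference between them was -0.08 with a 95% interval of -0.23 to 0.07. In the authors' deposited table HOXC8 is given with log2 fold changes of -0.53 for VP64-MyoD and -0.444 for WT-MyoD.

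HOXC6, known in the mouse for brachial motor neurons, had 25.2 and 26.3 CPM in VP64-MyoD and 36.6 and 33.5 CPM in WT-MyoD, against 37.5 and 40.3 CPM in untreated cells. HOXC9, which sets thoracic motor neuron identity in the mouse, had 6.32 and 6.61 CPM in VP64-MyoD and 8.53 and 8.32 CPM in WT-MyoD, against 9.41 and 8.92 CPM in untreated cells. HOXC4 had 7.97 and 7.31 CPM in VP64-MyoD and 11.6 and 9.84 CPM in WT-MyoD, against 12.6 and 12.4 CPM in untreated cells. In all 3 the VP64-MyoD libraries lay below the others, while the WT-MyoD means lay closer to those of untreated cells. HOXC6, HOXC9 and HOXC4 fell in VP64-MyoD, with log2 fold changes of -0.59, -0.50 and -0.71 (SE 0.08, 0.11 and 0.11, edgeR adjusted p = 6.4e-06, 0.001 and 4.8e-05). Their values in WT-MyoD, -0.15, -0.12 and -0.21, did not pass the test against untreated cells (edgeR adjusted p = 0.12, 0.39 and 0.12), though HOXC4 and HOXC6 did without WT-MyoD replicate 1 (edgeR adjusted p = 0.024 and 0.029, ranges over 15 alternatives 0.024 to 0.54 and 0.029 to 0.54). All 3 were also lower in VP64-MyoD than in WT-MyoD, with log2 fold changes of -0.44, -0.38 and -0.49, and of these the call of HOXC9 was lost without VP64-MyoD replicate 1 (edgeR adjusted p = 0.066, range 0.006 to 0.066).

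HOXC5 lay at 2.73 and 2.38 CPM in VP64-MyoD and 3.69 and 4.45 CPM in WT-MyoD, against 4.88 and 5.85 CPM in untreated cells, and the groups did not overlap. It fell by 1.07 on the log2 scale in VP64-MyoD (SE 0.17, edgeR adjusted p = 4.7e-05). In WT-MyoD it fell by 0.40, just inside the threshold (SE 0.16, edgeR adjusted p = 0.050). That WT-MyoD call was lost in 8 of 15 alternatives, among them leaving out WT-MyoD replicate 1, untreated replicate 2 or either VP64-MyoD library (edgeR adjusted p = 0.26, 0.32, 0.054 and 0.053, range 0.023 to 0.32). HOXC11 had 2.17 and 1.96 CPM in VP64-MyoD and 3.45 and 3.13 CPM in WT-MyoD, against 3.11 and 3.48 CPM in untreated cells. WT-MyoD and untreated cells overlapped for HOXC11 and VP64-MyoD lay below both, with log2 fold changes of -0.67 against untreated (SE 0.18, edgeR adjusted p = 0.004) and -0.68 against WT-MyoD (SE 0.18, edgeR adjusted p = 0.005). HOXC4, HOXC5 and HOXC6 share exons on the same strand in GENCODE 29, where 17.8% of HOXC4 exon bases lie in HOXC6 and 14.4% of HOXC5 exon bases lie in HOXC4, so part of their reads could count for more than 1 of them.

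The HOXB cluster carried most of the higher calls. HOXB9, which patterns the ribs in the mouse, stood at 16.4 and 17.4 CPM in VP64-MyoD and 3.8 and 3.48 CPM in WT-MyoD, against 13.4 and 14.7 CPM in untreated cells. WT-MyoD was far below the other groups, and the 2 VP64-MyoD libraries lay above both untreated libraries. HOXB9 fell by 1.94 on the log2 scale in WT-MyoD (SE 0.11, edgeR adjusted p = 6.7e-10) and was higher in VP64-MyoD than in WT-MyoD by 2.21 (SE 0.11, edgeR adjusted p = 1.6e-10), a 4.63-fold difference. Leaving out any library gave between -2.01 and -1.86 for WT-MyoD against untreated cells and between 2.14 and 2.28 for VP64-MyoD against WT-MyoD. Its small rise in VP64-MyoD over untreated cells, 0.27 (SE 0.10, edgeR adjusted p = 0.024), was not called without untreated replicate 1 or either VP64-MyoD replicate (edgeR adjusted p = 0.19, 0.054 and 0.17, range over 15 alternatives 0.008 to 0.19).

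HOXB2, a hindbrain patterning gene, had 15.3 and 14.4 CPM in VP64-MyoD and 10.3 and 8.76 CPM in WT-MyoD, against 7.02 and 7.32 CPM in untreated cells. The 3 groups did not overlap, with VP64-MyoD highest. HOXB2 rose by a log2 fold change of 1.05 in VP64-MyoD (SE 0.11, edgeR adjusted p = 6e-07) and 0.42 in WT-MyoD (SE 0.11, edgeR adjusted p = 0.006), and VP64-MyoD exceeded WT-MyoD by 0.63 (SE 0.11, edgeR adjusted p = 0.00012). The rise in WT-MyoD was not called without untreated replicate 1 or WT-MyoD replicate 1 (edgeR adjusted p = 0.055 and 0.069, range 0.00049 to 0.069). HOXB4, known for expanding blood stem cells, stood at 7.32 and 6.96 CPM in VP64-MyoD and 8.7 and 7.93 CPM in WT-MyoD, against 5.13 and 4.35 CPM in untreated cells. Both MyoD groups lay above untreated cells, by 0.59 in VP64-MyoD and 0.81 in WT-MyoD on the log2 scale (SE 0.13 each, edgeR adjusted p = 0.001 and 7.8e-05), and the difference between them, -0.22, had a 95% interval of -0.49 to 0.04.

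HOXB5, which sets the level of the shoulder girdle in the mouse, had 3.03 and 3.04 CPM in VP64-MyoD and 2.77 and 2.64 CPM in WT-MyoD, against 2.34 and 1.78 CPM in untreated cells. HOXB8, which marks a subset of microglia in the mouse, had 4.76 and 4.15 CPM in VP64-MyoD and 3.52 and 5.09 CPM in WT-MyoD, against 3.27 and 2.74 CPM in untreated cells. For both genes the untreated libraries were lowest and the HOXB8 values of the MyoD groups overlapped. HOXB5 rose by 0.55 in VP64-MyoD (SE 0.19, edgeR adjusted p = 0.021) and was 0.39 in WT-MyoD, which did not pass (edgeR adjusted p = 0.12). The HOXB5 call was lost without untreated replicate 2, VP64-MyoD replicate 1 or VP64-MyoD replicate 2 (edgeR adjusted p = 0.17, 0.069 and 0.078, range 0.009 to 0.17). HOXB8 rose by 0.56 in VP64-MyoD (SE 0.19, edgeR adjusted p = 0.017) and by 0.50 in WT-MyoD (SE 0.19, edgeR adjusted p = 0.042). The first of these HOXB8 calls was lost without VP64-MyoD replicate 1 or untreated replicate 2 (edgeR adjusted p = 0.10 and 0.12, range 0.001 to 0.12). The call in WT-MyoD was lost in 8 of 15 alternatives, among them leaving out untreated replicate 1, untreated replicate 2 or WT-MyoD replicate 2 (edgeR adjusted p = 0.059, 0.21 and 0.34, range 0.002 to 0.34).

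The remaining expressed HOXB genes did not pass the test in any comparison. HOXB3 had 13.9 and 13.4 CPM in VP64-MyoD and 15.1 and 15.3 CPM in WT-MyoD, against 14.8 and 14.8 CPM in untreated cells. HOXB6 had 5.93 and 6.08 CPM in VP64-MyoD and 5.68 and 5.58 CPM in WT-MyoD, against 5.49 and 5.12 CPM in untreated cells. HOXB7 had 9.35 and 10.7 CPM in VP64-MyoD and 9.7 and 10.3 CPM in WT-MyoD, against 8.44 and 8.96 CPM in untreated cells. Against untreated cells the 95% intervals of the log2 fold change ran from -0.31 to 0.07, -0.09 to 0.45 and -0.03 to 0.44 in VP64-MyoD for HOXB3, HOXB6 and HOXB7, and from -0.15 to 0.23, -0.19 to 0.36 and -0.04 to 0.44 in WT-MyoD. HOXB6 shares 16.6% of its exon bases with HOXB3 on the same strand. HOXB13, a prostate and tail-end gene, was the 1 lower call of the cluster in VP64-MyoD at 0.13 and 0.0769 CPM in VP64-MyoD and 0.213 and 0.196 CPM in WT-MyoD, against 0.444 and 0.412 CPM in untreated cells. Its log2 fold change in VP64-MyoD was -2.04 (SE 0.59, edgeR adjusted p = 0.007), a call lost without VP64-MyoD replicate 2 (edgeR adjusted p = 0.097, range over 13 alternatives 0.003 to 0.097), and all levels were under 1 CPM.

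In the HOXA cluster 6 members fell in VP64-MyoD against untreated cells. Per kilobase HOXA10 and HOXA11 stood highest of the cluster in every group, at 4.43 and 2.76 CPM per kb in VP64-MyoD and 6.64 and 4.6 CPM per kb in WT-MyoD, against 7.64 and 6.96 CPM per kb in untreated cells. HOXA11, which shapes the forearm and the uterus in the mouse, stood at 6.28 and 6.38 CPM in VP64-MyoD and 11 and 10.1 CPM in WT-MyoD, against 17.3 and 14.7 CPM in untreated cells. The 3 groups did not overlap and VP64-MyoD was lowest. HOXA11 fell by 1.34 on the log2 scale in VP64-MyoD (SE 0.11, edgeR adjusted p = 4.4e-08) and fell by 0.60 in WT-MyoD (SE 0.11, edgeR adjusted p = 0.00025), and VP64-MyoD lay below WT-MyoD by -0.74 (SE 0.12, edgeR adjusted p = 5.2e-05). HOXA10, which patterns the uterus in the mouse, had 12.3 and 10.2 CPM in VP64-MyoD and 18.5 and 15.2 CPM in WT-MyoD, against 19.5 and 19.3 CPM in untreated cells. HOXA10 fell by 0.79 in VP64-MyoD (SE 0.11, edgeR adjusted p = 1.7e-05), while its value of -0.20 in WT-MyoD did not pass (edgeR adjusted p = 0.15, and 0.011 without WT-MyoD replicate 1, range 0.011 to 0.72). Both transcripts counted for HOXA10 were lower in VP64-MyoD, at 0.578 and 0.584 of the untreated mean.

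HOXA9, a regulator of blood progenitors that is overexpressed in some leukaemias, was the 1 HOXA gene that rose in WT-MyoD. It had 5.28 and 4.46 CPM in VP64-MyoD and 8.06 and 6.85 CPM in WT-MyoD, against 4.76 and 5.63 CPM in untreated cells. VP64-MyoD overlapped untreated cells, and WT-MyoD lay above both. The log2 fold change in WT-MyoD was 0.53 (SE 0.14, edgeR adjusted p = 0.006), a call lost without untreated replicate 1 or WT-MyoD replicate 1 (edgeR adjusted p = 0.085 and 0.052, range 0.00038 to 0.085). VP64-MyoD was lower than WT-MyoD by -0.62 (SE 0.14, edgeR adjusted p = 0.002), and its value against untreated cells was -0.09 with a 95% interval of -0.41 to 0.23.

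HOXA7 had 2.81 and 2.69 CPM in VP64-MyoD and 4.01 and 4.01 CPM in WT-MyoD, against 4.48 and 4.07 CPM in untreated cells. HOXA5, needed for lung and trachea development in the mouse, had 0.866 and 0.884 CPM in VP64-MyoD and 2.1 and 1.52 CPM in WT-MyoD, against 1.78 and 1.92 CPM in untreated cells. HOXA3, needed for the thymus and parathyroids in the mouse, had 0.823 and 0.692 CPM in VP64-MyoD and 1.49 and 1.62 CPM in WT-MyoD, against 1.25 and 1.33 CPM in untreated cells. VP64-MyoD was lowest for each of them, without overlap. HOXA7, HOXA5 and HOXA3 fell in VP64-MyoD against untreated cells, with log2 fold changes of -0.64, -1.07 and -0.77 (SE 0.16, 0.26 and 0.29, edgeR adjusted p = 0.002, 0.002 and 0.028), and lay below WT-MyoD by -0.54, -1.06 and -1.03 (edgeR adjusted p = 0.008, 0.003 and 0.005). None of them passed in WT-MyoD against untreated cells, at -0.09, -0.02 and 0.27. Leaving out any of the untreated or VP64-MyoD libraries ended the HOXA3 call against untreated cells (edgeR adjusted p between 0.053 and 0.15, range over 15 alternatives 0.019 to 0.15). Against WT-MyoD the calls of HOXA7 and HOXA3 were lost without VP64-MyoD replicate 2 (edgeR adjusted p = 0.054 and 0.051, ranges 0.003 to 0.054 and 0.001 to 0.051). The 2 transcripts counted for HOXA3 differed, with VP64-MyoD at 0.27 of the untreated mean for the one and 1.12 for the other, from means of 0.219 and 0.539 CPM in VP64-MyoD and 0.81 and 0.479 CPM in untreated cells.

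HOXA6 fell too, at levels under 1 CPM, with 0.303 and 0.192 CPM in VP64-MyoD and 0.675 and 0.832 CPM in WT-MyoD, against 0.525 and 0.686 CPM in untreated cells. Its log2 fold change was -1.29 against untreated cells (SE 0.46, edgeR adjusted p = 0.023) and -1.60 against WT-MyoD (SE 0.45, edgeR adjusted p = 0.006). Without VP64-MyoD replicate 2 neither call held (edgeR adjusted p = 0.18 and 0.082, ranges 0.016 to 0.18 and 0.003 to 0.082), nor did the first without untreated replicate 2 (edgeR adjusted p = 0.13). HOXA4 had 1.3 and 1.31 CPM in VP64-MyoD and 1.39 and 1.03 CPM in WT-MyoD, against 1.05 and 0.732 CPM in untreated cells. HOXA4 did not pass in any comparison, with log2 fold changes of 0.54 in VP64-MyoD and 0.44 in WT-MyoD against untreated cells (edgeR adjusted p = 0.13 and 0.25). The crossing of the 1 CPM line by HOXA4 was therefore not a called change. HOXA2 and HOXA13 did not pass in any comparison either.

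The HOXD cluster held the fewest HOX reads of the 4. HOXD9 stood at 3.94 and 3.96 CPM in VP64-MyoD and 4.69 and 3.52 CPM in WT-MyoD, against 7.43 and 7.91 CPM in untreated cells. The MyoD groups overlapped each other, and both lay below untreated cells. HOXD9 fell by 0.96 on the log2 scale in VP64-MyoD and fell by 0.89 in WT-MyoD (SE 0.15 each, edgeR adjusted p = 4e-05 and 0.00012), and the difference between them, -0.07, had a 95% interval of -0.40 to 0.26. The authors' deposited table lists HOXD9 with log2 fold changes of -0.957 for VP64-MyoD and -0.897 for WT-MyoD, and HOXD9 and HOXC8 are the 2 HOX genes among its 3135 transcripts. The largest authors' adjusted p in it is 9.95e-06 for VP64-MyoD and 9.82e-06 for WT-MyoD. Absence of a HOX gene from it therefore does not show an unchanged level.

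HOXD1, the anterior end of its cluster, had 0.563 and 0.808 CPM in VP64-MyoD and 0.107 and 0.0979 CPM in WT-MyoD, against 1.13 and 1.05 CPM in untreated cells. WT-MyoD was lowest, on 6 and 4 counts. HOXD1 fell by 3.38 on the log2 scale in WT-MyoD (SE 0.48, edgeR adjusted p = 2.1e-05), and VP64-MyoD was higher than WT-MyoD by 2.71 (SE 0.50, edgeR adjusted p = 0.00026). Its value in VP64-MyoD against untreated cells, -0.66, did not pass (95% interval -1.40 to 0.07, edgeR adjusted p = 0.11). Over the libraries left out in turn the fall in WT-MyoD lay between -3.45 and -3.31 and the difference between the MyoD forms between 2.42 and 2.94. HOXD3 had 1.26 and 1.04 CPM in VP64-MyoD and 1.63 and 1.91 CPM in WT-MyoD, against 1.61 and 2.2 CPM in untreated cells. It fell by 0.73 in VP64-MyoD (SE 0.26, edgeR adjusted p = 0.021), a call lost without untreated replicate 2 or VP64-MyoD replicate 2 (edgeR adjusted p = 0.19 and 0.13, range 0.007 to 0.19). Against WT-MyoD its -0.62 lay just outside the threshold (SE 0.26, edgeR adjusted p = 0.050) and was called in 8 of 15 alternatives.

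HOXD8 had 15.1 and 15 CPM in VP64-MyoD and 14.1 and 12.5 CPM in WT-MyoD, against 16.3 and 14.9 CPM in untreated cells. HOXD4, which patterns neck vertebrae in the mouse, had 0.996 and 1.04 CPM in VP64-MyoD and 0.64 and 1.08 CPM in WT-MyoD, against 1.29 and 1.42 CPM in untreated cells. Neither passed in any comparison, with log2 fold changes of -0.06 and -0.41 in VP64-MyoD and -0.22 and -0.69 in WT-MyoD against untreated cells. In WT-MyoD both came within reach of the threshold: HOXD8 was called without WT-MyoD replicate 1 (edgeR adjusted p = 0.017, range 0.017 to 0.35) and HOXD4 without WT-MyoD replicate 2 (edgeR adjusted p = 0.023, range 0.023 to 0.48). The 3 transcripts counted for HOXD8 differed, at 1.08, 0.737 and 1.04 of the untreated mean in VP64-MyoD and 1.01, 0.685 and 0.838 in WT-MyoD. They were not tested singly. In GENCODE 29, 80.5% of HOXD4 and 62.2% of HOXD3 exon bases lie in a further transcribed locus on the same strand.

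Read by paralogue group, which joins the genes of the same number in the 4 clusters, groups 10 and 11 moved in 1 direction. Their 4 tested members, HOXA10, HOXC10, HOXA11 and HOXC11, fell in VP64-MyoD against untreated cells and were lower in VP64-MyoD than in WT-MyoD. Over all genes 30.3% and 28.4% were called lower in these comparisons. All 4 lie in HOXA or HOXC, which had 6 lower calls of 11 and 7 of 7 in VP64-MyoD against untreated cells. Paralogue number and cluster can therefore not be told apart here. Group 10 summed to between 40.1 and 41.1 CPM in VP64-MyoD and 62.8 and 68.7 CPM in WT-MyoD, against 77.6 and 78.4 CPM in untreated cells. Group 11 summed to between 8.34 and 8.44 CPM in VP64-MyoD and 13.2 and 14.5 CPM in WT-MyoD, against 18.2 and 20.4 CPM in untreated cells. Group 9 was mixed: in WT-MyoD against untreated cells HOXA9 rose, HOXB9 and HOXD9 fell and HOXC9 did not pass, and in VP64-MyoD HOXB9 rose, HOXC9 and HOXD9 fell and HOXA9 did not pass. Group 4 differed between clusters as well, with HOXB4 higher and HOXC4 lower in VP64-MyoD. These groups were formed by gene number and were not tested as groups.

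Of 23 noncoding and readthrough genes listed for the clusters, 10 were in the table and 8 were tested. In VP64-MyoD 1 rose and 4 fell against untreated cells, in WT-MyoD 1 fell, and between VP64-MyoD and WT-MyoD 1 was higher and 4 lower, with the same backgrounds of 63.6%, 48.5% and 57.2% called over all genes. HAGLR, a long noncoding RNA of the HOXD cluster that runs opposite to HOXD1, had 11 and 9.61 CPM in VP64-MyoD and 4.26 and 4.75 CPM in WT-MyoD, against 16.3 and 15.7 CPM in untreated cells. WT-MyoD was lowest and untreated cells highest, without overlap, the same order as for HOXD1. HAGLR fell by 0.64 on the log2 scale in VP64-MyoD (SE 0.11, edgeR adjusted p = 7.4e-05) and fell by 1.83 in WT-MyoD (SE 0.12, edgeR adjusted p = 1.5e-09), and was higher in VP64-MyoD than in WT-MyoD by 1.19 (SE 0.12, edgeR adjusted p = 4.2e-07). HAGLR exons cover 8% of HOXD1 exon bases and a further GENCODE 29 locus on the same strand as HAGLR covers 50.1%, and the libraries do not mark the strand, so reads in the overlap cannot be told apart.

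HOXA11-AS, antisense to HOXA11, had 1.17 and 0.654 CPM in VP64-MyoD and 2.24 and 2.2 CPM in WT-MyoD, against 2.34 and 2.06 CPM in untreated cells. WT-MyoD and untreated cells overlapped and VP64-MyoD lay below them, with log2 fold changes of -1.29 against untreated cells (SE 0.27, edgeR adjusted p = 0.00061) and -1.30 against WT-MyoD (SE 0.27, edgeR adjusted p = 0.00068). Its exons cover 31.1% of HOXA11 exon bases. HOXA-AS3, which overlaps 62.5% of HOXA7 and 39.3% of HOXA6 exon bases on the other strand, had 3.81 and 3.35 CPM in VP64-MyoD and 5.26 and 5.09 CPM in WT-MyoD, against 6.18 and 4.25 CPM in untreated cells. It fell by 0.55 in VP64-MyoD (SE 0.17, edgeR adjusted p = 0.012), a call lost without untreated replicate 1 or VP64-MyoD replicate 2 (edgeR adjusted p = 0.26 and 0.087, range 0.00071 to 0.26). HOXA10-AS, over 16.4% of HOXA10 exon bases, had 2.12 and 2.61 CPM in VP64-MyoD and 3.38 and 3.62 CPM in WT-MyoD, against 3.07 and 2.84 CPM in untreated cells, and differed between the MyoD forms (log2 fold change -0.55, SE 0.18, edgeR adjusted p = 0.016), a call lost without VP64-MyoD replicate 1 (edgeR adjusted p = 0.14, range 0.005 to 0.14). HOTAIR, the HOXC noncoding RNA studied with Polycomb, had 0.953 and 0.884 CPM in VP64-MyoD and 1.81 and 1.37 CPM in WT-MyoD, against 1.25 and 1.92 CPM in untreated cells, and fell by 0.78 in VP64-MyoD (SE 0.29, edgeR adjusted p = 0.030). That call was lost without VP64-MyoD replicate 1, untreated replicate 2 or VP64-MyoD replicate 2 (edgeR adjusted p = 0.071, 0.30 and 0.12, range 0.009 to 0.30). Without single libraries or with other tools the count of called noncoding genes in VP64-MyoD against untreated cells was as low as 2, without VP64-MyoD replicate 2, and 3 without either untreated replicate. Between VP64-MyoD and WT-MyoD the 5 calls were 3 without either VP64-MyoD replicate.

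**Figure D4:**
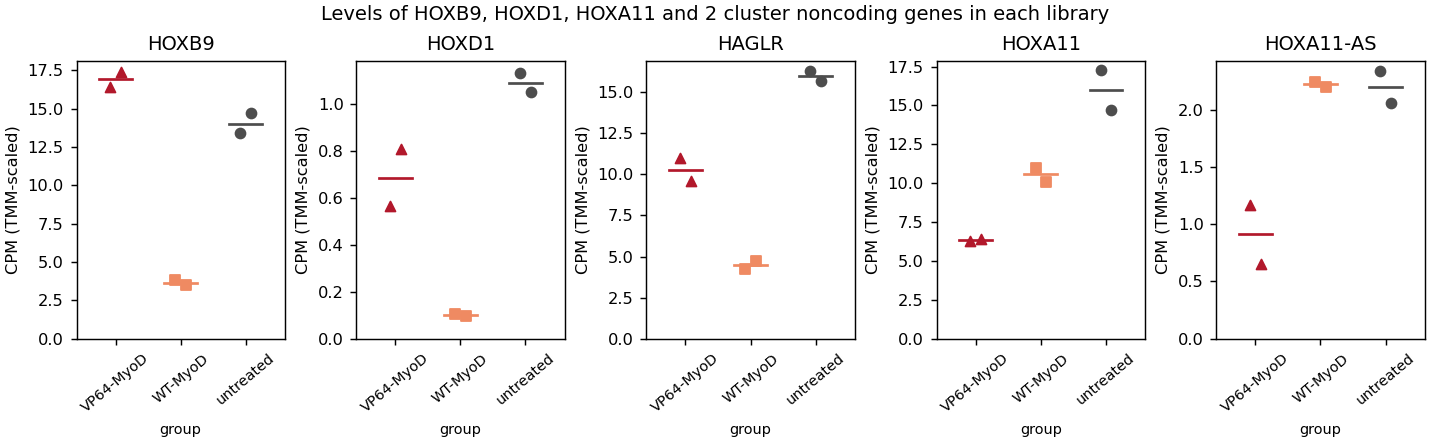
TMM-scaled CPM in each library of HOXB9, HOXD1 with HAGLR, and HOXA11 with its antisense gene HOXA11-AS, with bars at the group mean. HOXB9, HOXD1 and HAGLR are lowest in WT-MyoD, and HOXA11 and HOXA11-AS are lowest in VP64-MyoD.

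Genes bordering the clusters lay between -0.31 and 0.56 in log2 fold change against untreated cells. Of 8 tested neighbours, 1 rose and 2 fell in VP64-MyoD, 2 rose and 1 fell in WT-MyoD, and 1 was higher and 3 lower in VP64-MyoD than in WT-MyoD, where 63.6%, 48.5% and 57.2% of all genes were called in these 3 comparisons. The 3 calls in VP64-MyoD against untreated cells were 1 without VP64-MyoD replicate 1 or untreated replicate 2. The log2 fold changes in VP64-MyoD against untreated cells were 0.03 for SKAP2 and -0.00 for HIBADH beside HOXA, -0.17 for CALCOCO2 beside HOXB, -0.12 for SMUG1, 0.12 for CBX5 and -0.03 for CALCOCO1 beside HOXC, and 0.32 for MTX2 and -0.31 for LNPK beside HOXD. CALCOCO2 and LNPK fell and MTX2 rose. In WT-MyoD HIBADH rose by 0.35 and CBX5, the heterochromatin protein HP1 alpha, by 0.56, CALCOCO2 fell by 0.26, and SKAP2, SMUG1, CALCOCO1, MTX2 and LNPK did not pass, at 0.15, 0.01, -0.04, -0.03 and -0.03. The call of HIBADH in WT-MyoD was lost without untreated replicate 2 (edgeR adjusted p = 0.074, range 7e-05 to 0.074). CALCOCO2 in VP64-MyoD was not called without any 1 of the untreated or VP64-MyoD libraries (edgeR adjusted p between 0.055 and 0.20, range 0.003 to 0.20), and MTX2 in VP64-MyoD not without VP64-MyoD replicate 1 or untreated replicate 2 (edgeR adjusted p = 0.12 and 0.074, range 0.004 to 0.12).

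HOX proteins bind DNA together with TALE homeodomain cofactors, and of 10 such cofactors and partners tested 2 rose and 5 fell in VP64-MyoD, 4 rose and 3 fell in WT-MyoD, and 2 were higher and 7 lower in VP64-MyoD than in WT-MyoD. The 7, 7 and 9 calls of 10 stand beside 63.6%, 48.5% and 57.2% called over all genes. MEIS2, a direct HOX partner, had 25.7 and 22.4 CPM in VP64-MyoD and 50.8 and 45.3 CPM in WT-MyoD, against 78.1 and 84.8 CPM in untreated cells. The groups were fully separated with VP64-MyoD lowest. MEIS2 fell by 1.76 in VP64-MyoD and fell by 0.76 in WT-MyoD on the log2 scale (SE 0.08 each, edgeR adjusted p = 3.9e-11 and 8.4e-07). PBXIP1 rose by 1.93 in VP64-MyoD and 2.13 in WT-MyoD (SE 0.08 each, edgeR adjusted p = 1.2e-11 and 5.3e-12). PKNOX2, a TALE factor, rose in both MyoD groups and had 25.2 and 25.7 CPM in VP64-MyoD and 11.9 and 12.7 CPM in WT-MyoD, against 0.202 and 0.0915 CPM in untreated cells. Its log2 fold change was 7.38 in VP64-MyoD and 6.33 in WT-MyoD, on few untreated reads, and leaving out untreated replicate 1 gave 8.08 in VP64-MyoD and 7.02 in WT-MyoD. The count of 9 cofactors called between VP64-MyoD and WT-MyoD was 5 without VP64-MyoD replicate 2.

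Among 27 Polycomb genes, which keep HOX genes silent, 6 rose and 12 fell in VP64-MyoD, 5 rose and 9 fell in WT-MyoD, and 6 were higher and 8 lower in VP64-MyoD than in WT-MyoD. Those 18, 14 and 14 calls of 27 were near the 63.6%, 48.5% and 57.2% called over all genes, and the 6 higher in VP64-MyoD than in WT-MyoD were 3 without VP64-MyoD replicate 2. The median log2 fold change against untreated cells was -0.05 in VP64-MyoD and -0.03 in WT-MyoD. PCGF5, PHF1 and EZH1, a histone H3 lysine 27 methyltransferase, each fell by 0.82 in VP64-MyoD (SE 0.06, 0.07 and 0.07, edgeR adjusted p = 1e-08, 2.6e-08 and 3.8e-08), and in WT-MyoD PCGF5 fell by 0.28 and EZH1 by 0.35 while PHF1 was at -0.16 (edgeR adjusted p = 0.050, not called). PHF19 fell by 0.29 in VP64-MyoD and rose by 0.63 in WT-MyoD. A further list of 17 genes joined trithorax genes and H3 lysine 27 demethylases, which act on the active side, with CTCF. Of these 17 genes, 3 rose and 13 fell in VP64-MyoD and 1 rose and 5 fell in WT-MyoD. In VP64-MyoD against WT-MyoD 1 was higher and 10 were lower. Over all genes 30.3%, 22.5% and 28.4% were called lower in these comparisons, and 63.6%, 48.5% and 57.2% in either direction. The median log2 fold change against untreated cells was -0.37 in VP64-MyoD and -0.10 in WT-MyoD, and that of VP64-MyoD against WT-MyoD was -0.23. WDR5, a shared subunit of the H3 lysine 4 methyltransferases, rose by 1.13 in VP64-MyoD and 0.68 in WT-MyoD (SE 0.06 each, edgeR adjusted p = 2.5e-10 and 1.6e-07). KMT2A, the methyltransferase best known for holding HOX genes active, had 123 and 124 CPM in VP64-MyoD and 172 and 240 CPM in WT-MyoD, against 227 and 217 CPM in untreated cells, and fell by 0.84 in VP64-MyoD (SE 0.11, edgeR adjusted p = 4.7e-06). The 2 WT-MyoD libraries lay on either side of the untreated ones for KMT2A, whose WT-MyoD value of -0.11 was called without WT-MyoD replicate 2 (-0.35, edgeR adjusted p = 7.1e-06, range 7.1e-06 to 0.72). SETD1B and the demethylase KDM6B fell by 0.78 and 0.64 in VP64-MyoD. The 3 that rose in VP64-MyoD were 1 without VP64-MyoD replicate 2 or untreated replicate 2. The count of 6 in WT-MyoD against untreated cells was 3 without untreated replicate 1 and 12 without WT-MyoD replicate 2, and the count of 11 between the MyoD forms was 7 without VP64-MyoD replicate 2.

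Retinoic acid, made from retinaldehyde and read by RAR and RXR receptors, is a known inducer of HOX genes, and 12 of 20 genes listed for it and for the CDX factors were tested. In VP64-MyoD 3 rose and 8 fell, in WT-MyoD 5 rose and 5 fell, and 3 were higher and 8 lower in VP64-MyoD than in WT-MyoD, beside 63.6%, 48.5% and 57.2% of all genes called in either direction. The 5 that fell in WT-MyoD were 3 without untreated replicate 1. DHRS3, which turns retinaldehyde back to retinol, had 1.26 and 1.85 CPM in VP64-MyoD and 9.56 and 9.64 CPM in WT-MyoD, against 85.5 and 83.2 CPM in untreated cells. It fell by 5.75 in VP64-MyoD and fell by 3.14 in WT-MyoD on the log2 scale (SE 0.12 and 0.09, edgeR adjusted p = 1.2e-15 and 2e-13). ALDH1A3, which makes retinoic acid, had 9.01 and 8.15 CPM in VP64-MyoD and 40 and 42.8 CPM in WT-MyoD, against 33 and 29.2 CPM in untreated cells, and so fell by 1.86 in VP64-MyoD and rose by 0.41 in WT-MyoD (SE 0.09 and 0.08, edgeR adjusted p = 7.2e-11 and 0.00071). RARG, a retinoic acid receptor, fell by 1.37 in VP64-MyoD (SE 0.07, edgeR adjusted p = 8.3e-11). The receptor RXRG had 76.9 and 66.1 CPM in VP64-MyoD and 13 and 12.1 CPM in WT-MyoD, against 0 and 0.0915 CPM in untreated cells, and exceeded WT-MyoD in VP64-MyoD by 2.50 (SE 0.11, edgeR adjusted p = 2.4e-11).

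Other transcription factors that mark body position in fibroblasts and limbs were tested for 24 of 32 listed genes, of which 6 rose and 12 fell in VP64-MyoD, 7 rose and 5 fell in WT-MyoD, and 4 were higher and 14 lower in VP64-MyoD than in WT-MyoD. Over all genes 63.6%, 48.5% and 57.2% were called, and the 12 calls of 24 in WT-MyoD were near that share. The 7 that rose in WT-MyoD were 4 without untreated replicate 1, and the 4 higher in VP64-MyoD than in WT-MyoD were 2 without VP64-MyoD replicate 2. Their median log2 fold change against untreated cells was -0.42 in VP64-MyoD and 0.05 in WT-MyoD. LHX9, a LIM homeodomain factor of the limb bud, had 4.42 and 4.69 CPM in VP64-MyoD and 16.8 and 18.1 CPM in WT-MyoD, against 38.3 and 42.7 CPM in untreated cells. TWIST2, a factor of dermal fibroblasts, had 13.7 and 12.5 CPM in VP64-MyoD and 32.4 and 26.7 CPM in WT-MyoD, against 53.6 and 49.3 CPM in untreated cells. Both were lowest in VP64-MyoD and highest in untreated cells. LHX9 fell by 3.15 in VP64-MyoD and fell by 1.22 in WT-MyoD (SE 0.10 and 0.09, edgeR adjusted p = 2.2e-13 and 7.1e-09), and TWIST2 fell by 1.98 in VP64-MyoD and fell by 0.80 in WT-MyoD (SE 0.10 and 0.09, edgeR adjusted p = 6e-11 and 2.2e-06). TWIST1, its relative and a known inhibitor of MyoD, fell by 1.24 in VP64-MyoD (SE 0.10, edgeR adjusted p = 1.8e-08) and was at 0.16 in WT-MyoD (edgeR adjusted p = 0.15). SIM1 stood at 26.4 and 25.4 CPM in VP64-MyoD and 74 and 81.7 CPM in WT-MyoD, against 20.8 and 20.6 CPM in untreated cells, and rose by 0.32 in VP64-MyoD and 1.91 in WT-MyoD (SE 0.08 and 0.07, edgeR adjusted p = 0.002 and 4.6e-12).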

How the data were processed

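Polyadenylated RNA of 6 libraries was sequenced by the authors. The submitters' processing notes name CASAVA, Bowtie 0.12.9, DESeq 1.10.1 and hg19, and the counter and annotation are not given in the sources used here. The deposited table holds raw whole-number counts per RefSeq transcript. The authors' deposited table of comparisons holds group means as a signal (counts divided by size factors), ratios as fold, log2 fold changes and adjusted p-values, per the file headers, and was used only for the values credited to it.

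Of 40710 transcript rows, 39324 were matched to symbols through the RefSeq table and 526 through GENCODE 29, and counts were summed per symbol. The 859 rows without a symbol, 0.601% to 0.743% of the counts, were left out. All counts are even, which was read as a read pair counting as 2. Genes were filtered with filterByExpr (minimum count 10, minimum total 15) and tested two-sided with edgeR 4.0.16 in R 4.3.3 (TMM, quasi-likelihood) in 1 fit of 6 libraries with 3 residual degrees of freedom, and p-values were adjusted by Benjamini-Hochberg over 15293 genes and called under 0.05. The SE was taken as the size of the log2 fold change divided by the root of the F statistic. Alternatives used limma 3.58.1 and DESeq2 1.42.0, among others. Library preparation by tagmentation does not mark the strand, so overlapping genes are uncertain. Intervals and floors cover counting error and replicate spread of these libraries only.

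The HOX genes, the related lists and the markers were chosen with earlier results of these data known. Values are given for every HOX gene expressed in a group, for all tested neighbours of the clusters, and for up to 4 members of each other list with the smallest adjusted p. HOTAIR was added after its values were seen. Values of 2 single genes are not reported here and stay in the counts and sums.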

Additional observations from a re-analysis of the deposited data

Results flagged for a closer look

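HOXB9 was called in opposite directions with the 2 forms of MyoD, and the difference between them was tested directly. It stood at 16.4 and 17.4 CPM in VP64-MyoD and 3.8 and 3.48 CPM in WT-MyoD, and VP64-MyoD exceeded WT-MyoD by 2.21 on the log2 scale, with an SE of 0.11 and an edgeR adjusted p of 1.6e-10. Against untreated cells, at 13.4 and 14.7 CPM, the log2 fold change was 0.27 in VP64-MyoD and -1.94 in WT-MyoD. The rise in VP64-MyoD over untreated cells was not called by DESeq2 (adjusted p = 0.068, range over 15 alternatives 0.008 to 0.19), nor without untreated replicate 1, VP64-MyoD replicate 1 or VP64-MyoD replicate 2.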

How the results depend on the processing

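Of 1377 values of single HOX genes under 15 alternative settings, 1301 kept their sign and their side of the threshold, 44 lost a call, 14 gained one and 18 changed sign without being called. The number of HOX genes expressed in all 3 groups, 23 at 1 CPM, was 12 with 5 CPM as the line, and by cluster 2 in HOXA, 4 in HOXB and 1 in HOXD. With 0.5 CPM HOXA had 8 in place of 5. Leaving out each library in turn gave 8 to 12 HOX calls for WT-MyoD against untreated, 15 to 21 for VP64-MyoD against untreated and 13 to 18 for VP64-MyoD against WT-MyoD. DESeq2 gave 9 for WT-MyoD against untreated, 18 for VP64-MyoD against untreated and 16 for VP64-MyoD against WT-MyoD. Scaling by RLE moved the median of all genes by -0.0082 to 0.0012.

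With the replicate number as a replicate block, 9 HOX genes were called for WT-MyoD against untreated, 21 for VP64-MyoD against untreated and 16 for VP64-MyoD against WT-MyoD. The difference of replicate 1 minus replicate 2 was taken within each group and correlated between groups over 15293 genes. The correlation was 0.0285 for WT-MyoD with untreated, 0.0203 for VP64-MyoD with untreated and 0.00426 for VP64-MyoD with WT-MyoD. The replicate numbers were therefore not taken as pairs. The block ended the WT-MyoD calls of HOXB8 and HOXC5 (edgeR adjusted p = 0.050 and 0.053).

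Leaving out single libraries changed the sign of these log2 fold changes, none of which was called with all 6 libraries. For WT-MyoD against untreated the ranges were -0.28 to 0.20 for HOXA5, -0.08 to 0.09 for HOXC11, -0.32 to 0.13 for HOXD3, -0.25 to 0.28 for HOXA-AS3, -0.07 to 0.11 for HOXA11-AS, -0.26 to 0.37 for HOTAIR, -0.09 to 0.10 for SMUG1, -0.07 to 0.01 for MTX2, -0.12 to 0.08 for LNPK and -0.35 to 0.11 for KMT2A. SMUG1 was also -0.01 with symbols from the RefSeq table only. For VP64-MyoD against untreated they were -0.94 to 1.57 for HOXA2, -0.22 to 0.03 for HOXA9, -0.12 to 0.01 for HOXD8, -0.02 to 0.08 for SKAP2 and -0.08 to 0.01 for CALCOCO1. For VP64-MyoD against WT-MyoD they were -2.18 to 0.17 for HOXA2, -0.10 to 0.34 for HOXA4, -0.09 to 0.10 for HOXB7, -0.19 to 0.32 for HOXB8, -0.08 to 0.65 for HOXD4, -0.26 to 0.16 for HOXD9 and -0.03 to 0.05 for CALCOCO1. The cause of each change was not tested.

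With 2 libraries a group from 1 line, the p-values set a difference against the spread between these libraries. That spread was estimated in 1 fit over all 3 groups. The chi-square per degree of freedom between replicates, taken on read pairs, was 6.02 in VP64-MyoD and 13.8 in WT-MyoD, against 3.49 in untreated cells. The WT-MyoD replicates thus differed most. A HOX gene under about 1 CPM rests on few read pairs, since 1 pair, read as 2 counts, is worth 0.0355 to 0.0489 CPM. A call missed there does not show that the level stayed the same.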
